A study of Mus musculus with 2 samples.

Results

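The proteasome subunit genes are described here as the protein-coding mouse genes whose symbols run from Psma to Psmg. In the GENCODE annotation of mm10, 50 of 21853 protein-coding genes carried such a symbol. One of them, Psmc3ip, matched by name alone: it encodes a partner of meiotic recombination enzymes and is no proteasome part, so 49 genes encode subunits, activators, assembly chaperones or regulators. ATAC-seq uses a transposase to cut and tag accessible DNA, and it was applied to G1E-ER4, a mouse erythroid line labelled as male, postnatal and of strain C57BL/6J. G1E-ER4 cells derive from Gata1-null cells and carry GATA1 fused to the ligand-binding part of the estrogen receptor, so that estradiol switches the factor on and the cells mature along the red cell path. Both libraries, biological replicates 1 and 2 of a single group, held 50000 cells each, treated with 17beta-estradiol (10 nM, 24 hours). Untreated cells were not part of the analysis, so the values describe a single state of the cells, and none says how a gene was transcribed. The labels name both libraries as biological replicates and give the same donor for both, so their spread measures the repeat of 1 cell line.

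The proteasome degrades proteins that carry ubiquitin chains. Its 20S core is a barrel whose outer rings are built from the alpha subunits (Psma genes) and whose inner rings are built from the beta subunits (Psmb genes), and the cutting sites lie on the products of Psmb5, Psmb6 and Psmb7. The 19S cap, made of an ATPase ring (Psmc genes) and non-ATPase subunits (most Psmd genes), binds, unfolds and feeds in the substrate. In cells exposed to interferon, the products of Psmb8, Psmb9 and Psmb10 take the places of the Psmb5, Psmb6 and Psmb7 products and make the immunoproteasome, which yields peptides for antigen presentation. Psma8 replaces Psma7 in the testis, and Psmb11 replaces Psmb5 in the thymic cortex. Maturing red cells break down much of their protein content, in part through the ubiquitin and proteasome system.

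A gene was said to have a promoter region where a region of the conservative list overlapped the 1 kb on either side of any start of its coding transcripts. The conservative list is the authors' set of peaks that repeated between both libraries by irreproducible discovery rate (IDR), a measure of how consistently a peak is ranked. It held 20080 regions after overlapping peaks were merged. Depth as read counts is unknown, and the regions called stand in for it: 14012 in replicate 1's own list and 15564 in replicate 2's. Marker genes were looked up as a check of the labelled cell type. All 10 erythroid genes listed had a promoter region, 8 of them in replicate 1's own list and 9 in replicate 2's, none of the 5 T cell, 4 B cell, 5 myeloid and 4 thymic epithelial genes did, and 1 of 5 testis germ cell genes (Stra8) did, in replicate 2's own list alone. The erythroid genes include Gata1 itself, with a signal of 7.021 and in replicate 2's own list alone, although the line is known as Gata1-null.

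Of the 50 genes, 45 had a promoter region (90%), beside 42.3% of all protein-coding genes. Each of the 31 constitutive core and cap subunits had one: 7 of 7 alpha subunits, 7 of 7 beta subunits, 6 of 6 cap ATPases and 11 of 11 other cap subunits. So did the 7 assembly chaperones. The 5 genes without one were the immune subunits Psmb8 and Psmb10, the thymus subunit Psmb11, the testis subunit Psma8 and Psme2b, a single-exon relative of the activator gene Psme2. Among the 3 immune core subunits only Psmb9 had a promoter region, and both testis and thymus subunits lacked one.

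In replicate 1's own list 44 of the 50 had a promoter region (88%), beside 38.8% of all genes, and in replicate 2's own list 42 did (84%), beside 39.9%. The mean over the libraries was 86% ± 2.83 (SD, n = 2). For 42 genes the promoter region of the conservative list was in both own lists, beside 37.3% of all genes. The 5 genes without a promoter region in the conservative list had none in either library's own list. They also had none in either library's longer ranked list, which keeps peaks below the reproducibility threshold. Of the 31 constitutive subunits, 31 were in replicate 1's own list and 30 in replicate 2's, where Psmc2 was missing. A design of 1 group with 2 libraries allows no test of the difference between the classes.

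**Figure D1:**
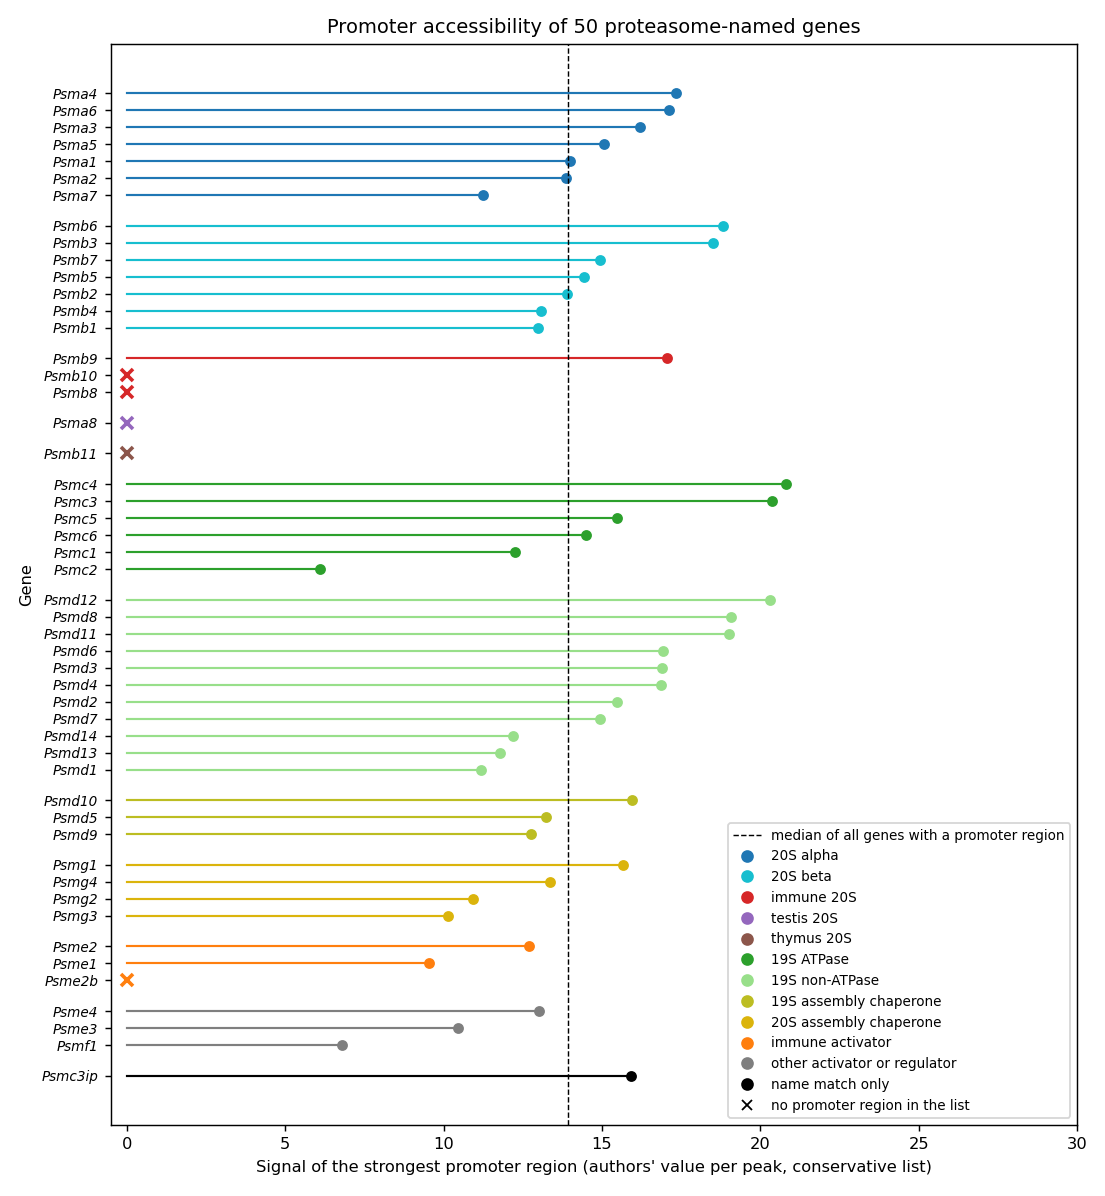
Signal of the strongest promoter region of each of the 50 genes in the conservative list, on a linear axis in the authors' own units, grouped by role. Crosses mark the 5 genes with no promoter region, all of them immune, testis or thymus genes, and the dashed line is the median of 13.94 over all genes with a promoter region.

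Sequence patterns known from proteasome and housekeeping promoters were searched on both strands within 100 bases of the summit of a promoter region. For members only the strongest promoter region of each of the 45 genes was used. The 9712 regions of all genes outnumber the 9244 genes with a promoter region, so they include further regions of some genes. The shares below therefore compare sets chosen in unlike ways. The antioxidant response element, letters TGACNNNGC, is bound by the products of Nfe2l1 and Nfe2l2, the first of which is known to raise proteasome genes together when proteasome activity falls. It was matched in 8 of the 45 member regions (17.8%), beside 12.7% of the 9712 promoter regions of all genes. These 8 were Psma3, Psmb2, Psmb5, Psmb6, Psmc6, Psmd7, Psmd9 and Psme4. The matches in genes that the RefSeq promoter table (GRCm38.p6) also holds are shown in capitals with 10 bases on either side, read from that assembly, 5′ to 3′ on the strand of the match, because this element is the one best known for joint control of the family.
Psma3, chr12:70974723-70974751, minus strand: ctcatggtgcTGACCCGGCaggccgcgga
Psmb5, chr14:54618024-54618052, minus strand: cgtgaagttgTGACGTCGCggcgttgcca
Psmb6, chr11:70525338-70525366, plus strand: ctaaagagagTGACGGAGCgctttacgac
Psmc6, chr14:45329587-45329615, minus strand: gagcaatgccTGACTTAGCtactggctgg
Psmd9, chr5:123228149-123228177, plus strand: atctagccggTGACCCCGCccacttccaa
Psme4, chr11:30771758-30771786, minus strand: gctcttctggTGACGCTGCagccgcagcg
The Psmb5 match also holds the letters TGACGT of a cAMP response element, so the 2 patterns overlap there. In the narrower stretch of 50 bases on either side of the summit, 3 members kept a match (Psmb2, Psmb5 and Psmb6), which was 6.67% beside 7.3% of all promoter regions. At that width the share of members was not above that of all genes.

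The core of the sites of ETS factors, a family whose member GABPA binds many housekeeping promoters, reads CCGGAA and was the pattern whose share differed by the most percentage points from that of all genes. It was matched in 23 of 45 member regions (51.1%), beside 27.8% of all promoter regions. The cap and the core differed in their counts: 12 of 17 cap subunits held a match, against 4 of 14 constitutive core subunits and 3 of 7 assembly chaperones. The matches of cap genes in the RefSeq table are shown in the same way, the one nearest the summit for each gene.
Psmc1, chr12:100110165-100110190, minus strand: atcgccaccgCCGGAAgtgcatccac
Psmc2, chr5:21785182-21785207, minus strand: gagccccatcCCGGAAgtgctcactg
Psmc5, chr11:106256080-106256105, plus strand: gcccattgacCCGGAActgttctcgg
Psmc6, chr14:45329714-45329739, plus strand: ggcgggccagCCGGAAggggcggagc
Psmd11, chr11:80428595-80428620, minus strand: aaacacacacCCGGAAgacccgccct
Psmd12, chr11:107479502-107479527, minus strand: gtcactcgcaCCGGAAgtcgcccgct
Psmd13, chr7:140882378-140882403, plus strand: gcccgcggtgCCGGAAgtgagcgagc
Psmd14, chr2:61711731-61711756, plus strand: agccgggaacCCGGAAgtacttctct
Psmd2, chr16:20651617-20651642, minus strand: gtcctccagaCCGGAAgcgccctgcg
Psmd6, chr14:14120975-14121000, minus strand: agagacgcgaCCGGAAgtcagactgg
In 6 of these 10 matches the core was followed by the letters GT. Psmc3 and Psmd7 were the other cap genes with a match. With 50 bases on either side of the summit, 8 of 17 cap and 4 of 14 core regions held a match, beside 18.3% of all promoter regions. With 200 bases on either side 13 of 17 and 5 of 14 did, beside 36.5% of all. The core count was near the share of all genes at this width. It was also near that share at the width of the main counts above, with 4 of 14 beside 27.8%. A match is a string of letters, not a measured site of binding.

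The GATA pattern was searched only as AGATAA, one form of the site of the factor that estradiol switches on in these cells. It was matched in 3 of 45 member promoter regions (6.67%: Psmd3, Psmd9 and Psmf1), beside 4.55% of all. The interferon-stimulated response element, searched as GAAANNGAA, was matched in 5 (11.1%), beside 3.37% of all. These were Psmb3, Psmb4, Psmd4, Psmd7 and Psme1. Psme1, which encodes an interferon-inducible activator, was the one immune gene among them, and the other 4 encode constitutive subunits. The CCAAT box was matched in 14 members (31.1%) beside 37%, the GC box GGGCGG in 27 (60%) beside 60.8%, and the NF-kB pattern GGGNNNNCC in 20 (44.4%) beside 46.5%. The YY1 pattern AAGATGGC was matched in 4 members (8.89%) beside 4.28% of all, and the cAMP response element TGACGT in 3 (6.67%) beside 11.5%. The E-box CACGTG was matched in 4 (8.89%) beside 8.99%, the nuclear respiratory factor 1 pattern GCATGCGC in 2 (4.44%) beside 4.61%, and the interferon gamma-activated pattern TTCNNNGAA in 2 (4.44%) beside 4.04%.

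**Figure D2:**
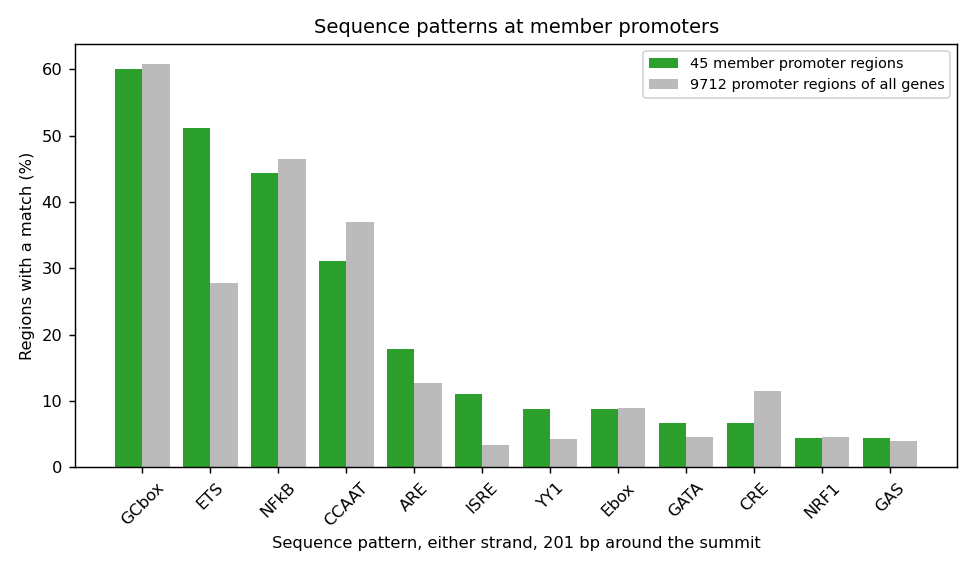
Share of promoter regions with at least 1 match to each of 12 sequence patterns, on either strand. Shown are the strongest region of each of 45 members and the 9712 promoter regions of all genes, which include further regions of some genes. The ETS core stands at 51.1% against 27.8%, while the GC box, NF-kB and CCAAT patterns lie within a few percentage points of all genes or below them, and the label NRF1 stands for nuclear respiratory factor 1.

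Among genes that had a promoter region, the members were close to the middle. The signal is the enrichment that the authors gave each peak, in an unstated scale, and it was compared only within a list. The 45 members ran from 6.097 to 20.82 with a median of 14.51, and the 9244 genes with a promoter region had a median of 13.94 and middle quartiles from 10.87 to 17.18. Of the members, 25 lay above that median, 8 above the upper quartile and 5 below the lower quartile.

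The alpha subunits, which form the outer rings and the gate of the core, ran from 11.24 for Psma7 to 17.33 for Psma4. Psma7, whose place in the testis core Psma8 takes, had the lowest signal of the 7. Its region at chr2:180042278-180042863 had a signal of 9.442 in replicate 1's ranked list and 11.05 in replicate 2's. The other 5 alpha genes lay between these, and all 7 were in both own lists.

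The beta subunits, which carry the cutting sites, ran from 12.98 for Psmb1 to 18.83 for Psmb6. Psmb5, the chymotrypsin-like subunit, had a signal of 14.43 at chr14:54617780-54618408, with 12.42 in replicate 1 and 11.79 in replicate 2. Psmb7, the trypsin-like subunit, had 14.94 at chr2:38643806-38644317, with 11.25 and 13.9 in the replicates. Psmb6, the caspase-like subunit, had 18.83 at chr11:70525088-70525527, and its replicates were far apart, at 18.41 and 11.55. On the scale of percentiles among all genes with a promoter region in the same ranked list, Psmb6 stood at 93.4 in replicate 1 and 44.6 in replicate 2, a gap of 48.8 points. The median gap of the 45 members was 10.4 points, and the next largest was 32.6 for Psma1. The high rank of Psmb6 among the core subunits thus rests on replicate 1.

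The cap subunits held both ends of the range. Psmc4, an ATPase of the cap, had the highest signal of all members, 20.82 at chr7:28049766-28050427, with 18.12 and 19.31 in the replicates. Psmc3, another ATPase, followed with 20.36 at chr2:91053648-91054425, with 16.12 and 19.36. Psmd12, a non-ATPase subunit, had 20.32 at chr11:107479208-107479828, with 19.82 and 16.58. These 3 stood at or above the 83rd percentile in each library. Psmd8 followed with 19.08 (16.84 and 17.89 in the replicates) and Psmd11 with 19 (18.03 and 15.96). Of the 5 highest members, all were cap subunits. The median percentile was 72.9 for the 11 non-ATPase cap subunits, 58.5 for the 6 ATPases, 58.9 for the alpha and 54.1 for the beta subunits.

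Psmc2, also a cap ATPase, was the lowest member. Its promoter region at chr5:21785077-21785395 had a signal of 6.097 and the 1.82nd percentile, with 7.014 in replicate 1 and 5.258 in replicate 2, and it was in replicate 1's own list alone. A stronger region lay 1400 bases downstream of the start, in an annotated untranslated exon, at chr5:21786387-21786901. That region had a signal of 8.352, with 8.096 and 7.157 in the replicates, and was in both own lists. The RefSeq table lists more than 1 start for Psmc2, and its entry at chr5:21786497-21786796 lies inside this stronger region. By the GENCODE coding start used here, the stronger region is no promoter region and counts as distal below. The rank of Psmc2 as the lowest member thus holds for the GENCODE coding start. The stronger region was also low: its signal lay above that of Psmf1 (6.788) but below that of Psme1 (9.536). It was below the lower quartile of 10.87 over all genes with a promoter region. The remaining ATPases, Psmc1, Psmc5 and Psmc6, ran from 12.26 to 15.49.

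Assembly chaperones guide the building of the ring and leave it afterwards. The 3 of the cap (Psmd5, Psmd9 and Psmd10) ran from 12.75 to 15.95, and the 4 of the core (Psmg1 to Psmg4) from 10.15 to 15.66. Psmg3 was among the 5 lowest members, with 10.15 at chr5:139826474-139827075 and with 9.655 and 8.505 in the replicates. The median percentile of the 7 chaperones was 44.2, below those of the core and cap subunits.

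Activators and regulators had the lowest signals as a class. Psmf1, which encodes the inhibitor PI31, had 6.788 at chr2:151740923-151741527, with 6.225 and 6.595 in the replicates, and it was in both own lists. Psme3, which encodes the nuclear activator PA28gamma, had 10.44 at chr11:101315598-101316342, with 10.04 and 9.627, and was in replicate 1's own list alone. Psme4, which encodes the activator PA200, had 13.02. Psme1 and Psme2, which encode the subunits of the interferon-inducible activator PA28, both had a promoter region. Psme1 had 9.536 at chr14:55578147-55578724, with 7.709 and 8.644, and it was in neither library's own list. Psme2 had 12.71 at chr14:55590879-55591882, with 11.82 and 11.9, and was in both. The open promoter of Psme1 is therefore the least supported of the 45.

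**Figure D3:**
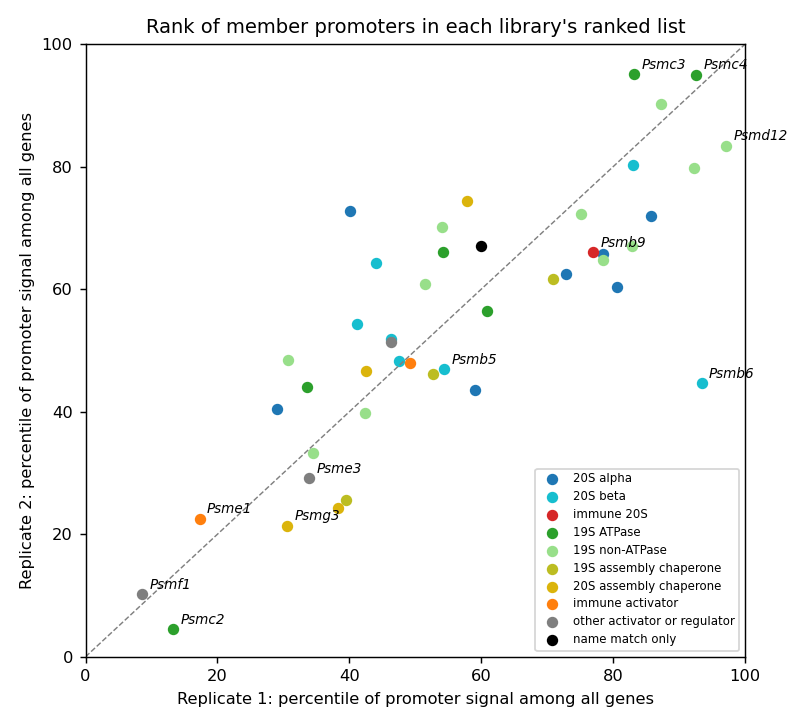
Percentile of each member's promoter signal among all genes with a promoter region, in replicate 1's ranked list (x axis) and replicate 2's (y axis), coloured by role, with the line of equality dashed. Most genes lie near the line, Psmb6 lies far below it, and Psmc2, Psmf1 and Psme1 sit at the low end in both libraries.

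Across the 45 members the signals of the replicates correlated with a Spearman rho of 0.775, and across the 9670 genes in both ranked lists with 0.917. These correlations run across genes, which are not independent replicates, and the points of a library share its depth, so no p-value is given. Whether the range of signals among the members bears on their lower value was not tested. The median percentile of the members was 54.1 in replicate 1's ranked list and 56.5 in replicate 2's.

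The immune core subunits lie in 2 places. Psmb8 and Psmb9 stand in the major histocompatibility complex on chromosome 17, next to Tap1 and Tap2, whose products carry peptides into the endoplasmic reticulum. The region at Psmb9, chr17:34187231-34187919, had a signal of 17.04 and the 74.1st percentile, with 15.25 in replicate 1 and 14.09 in replicate 2. It also covers the start of Tap1, which runs on the opposite strand from a start 38 bases away, so its signal cannot be given to one of the genes. Psmb8 had no promoter region, and the nearest region of the conservative list lay 9802 bases from its nearest start. In the archived list, the authors' largest set of peaks read here, with 157788 regions, the nearest still lay 5004 bases away. Both genes shared 1 distal region, chr17:34210423-34211063, with a signal of 10.86 (9.536 and 9.852 in the replicates) and a GATA pattern near its summit. The start nearest to that region belongs to Tap2, which itself had no promoter region.

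Psmb10, on chromosome 8, had no region within 1 kb of its coding start but an open region inside the gene. That region, chr8:105936901-105937420, peaked 1353 bases downstream of the start, in an intron, and its near edge missed the 1 kb window by 24 bases. It had a signal of 13.67, close to the median of 13.94 for promoter regions of all genes, with 9.223 in replicate 1 and 14.81 in replicate 2, and it was in both own lists. GENCODE lists 6 starts of non-coding Psmb10 transcripts. Of these, 3 lay inside this region, 53, 64 and 66 bases from the summit, and the other 3 lay outside it, 574, 1001 and 1013 bases from the summit. Counting the starts of all transcripts gave Psmb10 a promoter region, as did a window of 2 kb, and the replicated and archived lists each held a region (signals of 3.977 and 5.844 in their own scales) within 1 kb of the coding start. Whether Psmb10 counts among the genes without a promoter region depends on which start and list are used.

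The 2 stretches of Psmb10 are shown together, on the minus strand, since the finding turns on them. The first is the sequence just upstream of the coding start, where no promoter region was called, with its E-box in capitals. It also holds a match to the NF-kB pattern, left in lower case, and no ETS core, antioxidant element, GATA or interferon-stimulated pattern. The second spans 50 bases on either side of the summit of the open region, with ETS cores and the antioxidant element in capitals. The letters TTCCGGAA read as an ETS core on both strands, so the 3 ETS matches include an overlapping pair, and the antioxidant element lies 3 bases from it, read on the opposite strand.
Psmb10 upstream of the coding start, chr8:105938445-105938552: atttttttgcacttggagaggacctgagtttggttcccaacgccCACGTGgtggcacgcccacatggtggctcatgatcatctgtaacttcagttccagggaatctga
Psmb10 open region in the intron, chr8:105937041-105937141: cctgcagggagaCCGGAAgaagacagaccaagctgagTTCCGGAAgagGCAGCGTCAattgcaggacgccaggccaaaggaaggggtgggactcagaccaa

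Psmb11 lies beside Psmb5, with 3411 bases between their nearest starts. The Psmb5 promoter was open and Psmb11 had no region within 1 kb of its starts. The nearest region, chr14:54623402-54623731, had a signal of 8.289, lay 1579 bases from the nearest start, and was in neither library's own list. A window of 2 kb gave Psmb11 a promoter region through it. For Psma8 the nearest region lay 22745 bases away in the conservative list, and 22762 bases away in the archived list. For Psme2b it lay 72087 bases away in the conservative list but 9972 bases away in the archived list.

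**Figure D4:**
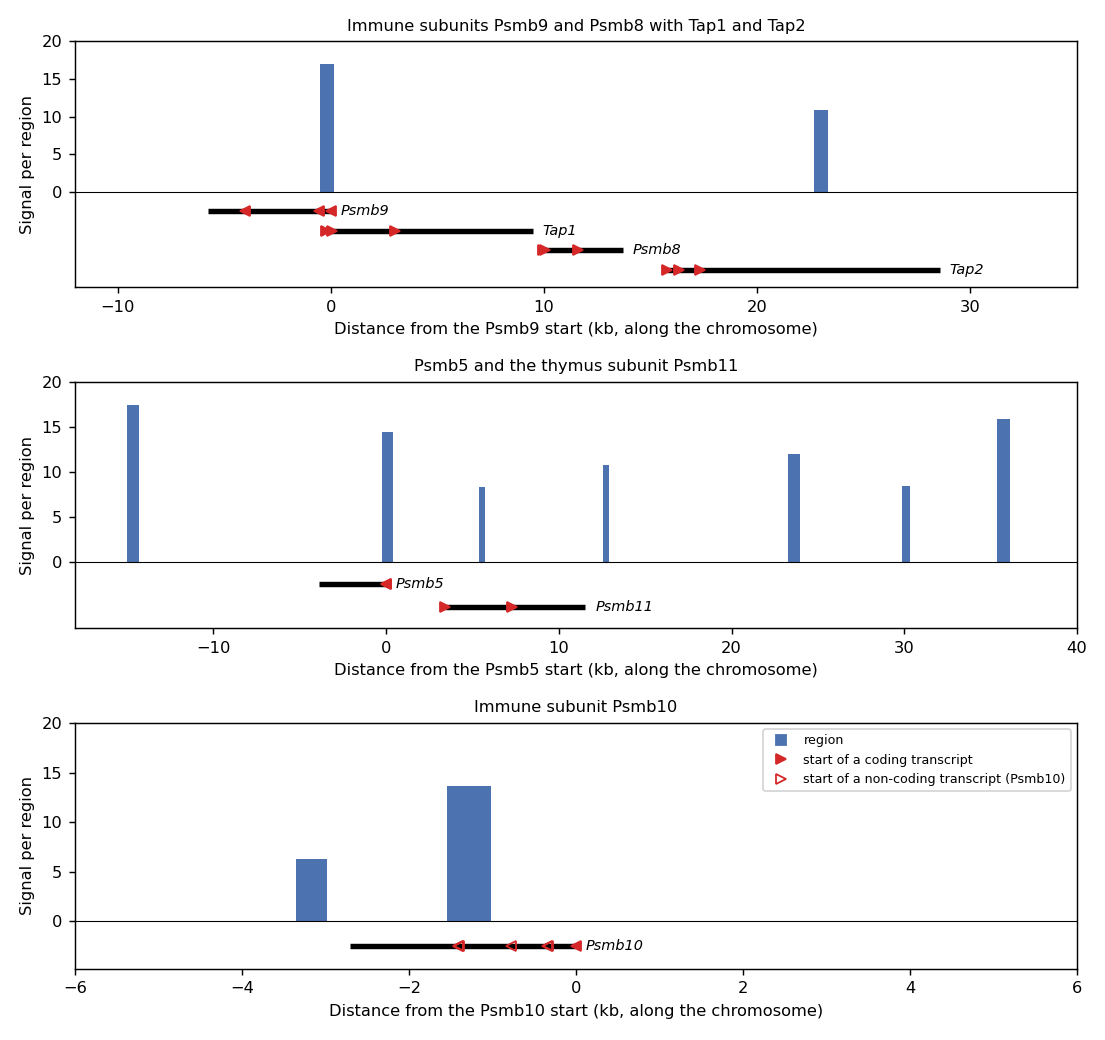
Regions of the conservative list (bars, signal on the y axis) by distance in kb along the chromosome from the start of Psmb9, Psmb5 and Psmb10, with gene bodies as black lines and starts as red triangles. The region at Psmb9 also covers the start of Tap1, none lies at the starts of Psmb8 or Psmb11, and that of Psmb10 lies at 3 of the 6 starts of its non-coding transcripts.

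The sequences around the starts differed in CpG content. The ratio of observed to expected CpG, which is high in promoters kept free of methylation, was taken from the RefSeq promoter table, which spans 250 bases before to 50 bases after each start. It held 42 of the 50 genes in 45 entries. Psma8, Psmb1, Psmb2, Psmb7, Psmc3, Psmd3, Psmd7 and Psmg2 were not among them. The 40 entries that overlapped a region of the conservative list had a median of 0.787, and all 20143 promoters had a median of 0.588. The larger set includes promoters without a region, so these medians compare sets chosen in unlike ways. The 5 entries without overlap were those of Psmb8 (0.523), Psmb10 (0.192), Psmb11 (0.165) and Psme2b (0.0904), and 1 of 2 entries of Psma6 (0.185), whose other entry (0.697) did overlap. All 5 stood below the median of all promoters. Of the 40 overlapping entries 7 did as well, those of Psma3, Psmb4, Psmd4, Psmd10 and Psme1 and both of Psme2, and Psmd4 (0.508) and an entry of Psme2 (0.456) stood below Psmb8. The ratios of entries with and without a region thus overlapped.

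For the strongest promoter region of each of the 45 members, the summits lay from -256 to 261 bases from the nearest coding start, where negative is upstream, with a median of -25, and 35 of 45 lay within 100 bases, beside 64.3% of all genes with a promoter region. Their median width was 665 bases, beside 645. Psmb1 and Psmd14 had 2 promoter regions each, and the second of Psmd14 peaked 1069 bases downstream of the start, so by its summit it is also among the distal regions below. A start on the opposite strand lay within 1 kb for 11 of the 45 (24.4%), beside 21.9% of all genes with a promoter region. These shared pairs were Psma2 with Mrpl32, Psma4 with AY074887, Psma7 with Ss18l1, Psmb1 with Tbp, Psmb9 with Tap1, Psmc2 with Dnajc2, Psmc5 with Ftsj3, Psmd10 with Atg4a, Psmd13 with Sirt3, Psme2 with Rnf31 and Psmg2 with Cep76. At these pairs the accessibility was not assigned to either gene alone.

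Distal regions, with a summit over 1 kb from every coding start, were counted near members. At least 1 lay within 50 kb of the gene body for 38 of the 50 (76%), beside 50.6% of all genes, and 12 had none. The median was 1 per gene in members and in all genes, and the means were 1.62 and 1.19. Members shared some regions, so the total was 75 different ones. For 25 of them the nearest start was that of a member, and for the other 50 it was that of another gene. Their median signal was 8.989, beside 9.36 for all 10583 distal regions. In both own lists stood 33, and 25 stood in neither.

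The GATA pattern was matched near the summit of 20 of the 75 distal regions (26.7%), beside 25.5% of all distal regions. Psmd9, an assembly chaperone of the cap, had the most distal regions, 6. They lay from -92.5 to -56.4 kb of its nearest coding start (negative is upstream), nearer to Rhof, Setd1b or Hpd. The annotated Psmd9 body begins far upstream of that start, at chr5:123169413, and the 50 kb window ran from the body. None of the 6 lay within 50 kb of the coding start, and the strongest, with a signal of 18.23, lay in an intron of the body. Psmc3, Psmd4 and Psmg3 had 5 each, and Psmb5, Psmb11 and Psmd5 had 4. The strongest at Psmc3, chr2:91060581-91061357, lay in a Psmc3 intron 6.68 kb downstream of the start. It had a signal of 12.61 (12.28 and 9.414 in the replicates), was in both own lists and held a GATA pattern. The 4 of Psmb5 were the same 4 as those of Psmb11, and 3 of the 5 at Psmc3 were nearer to Spi1 or Mybpc3.

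**Figure D5:**
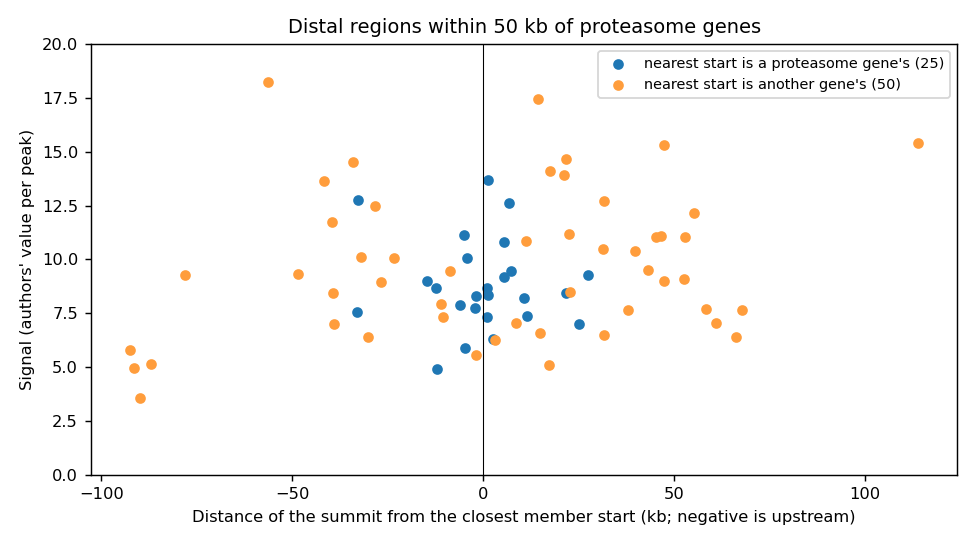
Signal of the 75 distal regions within 50 kb of a member's gene body against the distance of the summit from the closest member start, in kb, negative upstream. Those whose nearest start is a member's (25, blue) lie closer to 0, and distances over 50 kb arise because the window runs from the gene body.

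Other genes of the pathway were taken from a list outside the Psm symbols. Of 33 found in the annotation, 31 had a promoter region, beside 42.3% of all protein-coding genes. They were 16 of 16 partners of the proteasome, 4 of 4 ubiquitin precursors, 6 of 6 regulators and 5 of 7 genes of antigen processing and interferon. In replicate 1's own list 26 of the 33 had one, and in replicate 2's 29 did, beside 38.8% and 39.9% of all genes. The partner Fbxo7 and the regulator Ddi2 were in neither own list. Above the median signal 20 of the 33 kept a promoter region, beside 40 of the 50 members. Nfe2l1, the main factor that restores proteasome gene expression, had a signal of 18.71, and Nfe2l2, its relative in the oxidative stress response, had 10.26. The genes without one were Tap2 and Nlrc5, the activator of class I histocompatibility genes. B2m, the light chain of class I molecules, had a signal of 14.54, and Irf1, a factor of the interferon response, had 16.55. By coding starts and the conservative list, an absent promoter region was thus seen at Psmb8, Psmb10, Tap2 and Nlrc5, but not across the interferon genes listed. For Psmb10 it depended on the start and list used.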

How the data were processed

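Both ATAC-seq libraries form 1 group. The 50 genes and all gene lists and sequence patterns were chosen with earlier results of these data known. Peak lists were deposited by the authors on mm10, per the labels; the aligner, peak caller, read filters and any shift of read ends are unstated in the sources used. The deposited signal of a peak is the authors' enrichment value in an unstated scale, and the deposited lists give a −log10 p-value beside it. Ranked lists add the −log10 of the global IDR, with a threshold of 0.05 in the thresholded lists. In all, 8 lists were read. The plan took replicate values from the ranked list of true replicates, whose unnamed columns could not be tied to a library, so each library's own ranked list was used instead.

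Overlapping peaks were merged, each with the summit of its strongest peak. Genes and starts came from GENCODE M21, and sequences from RefSeq GRCm38.p6. A region counted as present in a library's own list if at least 50% of the shorter of the pair overlapped. Python 3.11.15, NumPy 2.4.6 and SciPy 1.17.1 were used, and the code was tested on simulated regions and patterns. With 1 group there is no test between conditions. Genes named in full were the immune, testis and thymus genes with their counterparts, those without a promoter region or outside an own list, the 5 highest and 5 lowest signals, and those with most distal regions. Alternatives covered other lists, windows, starts and libraries left out.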

Additional observations from a re-analysis of the deposited data

How the results depend on the processing

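The count of members with a promoter region was 45 and ranged from 40 (regions above the median signal) to 47 (2 kb window) over all alternatives, and from 42 to 44 when 1 library's own list was used alone. The genes that changed were Psmb10 and Psmb11 (gained) and Psmc2, Psme1, Psme3, Psmf1 and Psmg3 (lost). Of 34 alternatives, 23 kept their value (a count within 1.5 times, another value within 1 SD of the replicates) and 11 moved it. That rule is wide for counts. With 50 genes a count of 45 could not rise by that factor, and an antioxidant count of 12 instead of 8 was labelled as kept. The tally is therefore no measure of stability. The mean number of distal regions per member, 1.62, became 4.52 in the replicated list (3.4 for all genes), 0.52 above the median signal, 0.9 within 20 kb, 3.02 within 100 kb and 3.44 where only the gene's own promoters were left out, and ranged from 0.88 to 1.1 in single libraries. It stayed above the mean of all genes in each. The median percentile of promoter signal, 54.7, became 45.8 among regions above the median signal, where it is a rank among those stronger regions only. In the libraries' own thresholded lists it ranged from 46.8 to 55, and in their longer ranked lists it was 54.1 and 56.5. It thus fell on either side of the middle. Members with an antioxidant element fell from 8 to 3 at 50 bases on either side of the summit, and the pathway count from 31 to 20 above the median signal. The archived list, the ETS windows and the antioxidant count in regions called in both libraries were added after seeing the data. No paired analysis was possible because both libraries belong to 1 group. Depth is unknown, so a gene without a region is one where none was called, not one shown to be closed.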
